A study of Nannospalax ehrenbergi and Mus musculus with 25 samples.

Results

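The interferon system was examined gene by gene in muscle and tumor tissue of the blind mole rat Spalax and of the house mouse after injection of the carcinogen 3-methylcholanthrene (3MCA). The set comprised 45 genes chosen by name, of which 15 encode receptors and signaling proteins and 30 encode proteins that interferon induces. The mouse table held a row for all 45 genes among its 47593 genes. The Spalax table held 36 of them among 27988 genes, namely 14 of the receptor and signaling genes and 22 of the induced genes. The 9 genes with no row in the Spalax table were Ifnar1, Ifit1, Mx2, Oas2, Ifi44, Samhd1, Gbp2, Cmpk2 and Trim25, and they are described in mouse alone.

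Interferons are cytokines that bind paired receptor chains on the cell surface, the Ifnar chains for the type I interferons and the Ifngr chains for interferon gamma. Kinases of the Jak family bound to these receptors phosphorylate STAT proteins, which enter the nucleus alone or with Irf9 and switch on a common set of genes. The products of those genes sense foreign RNA, block viral replication, conjugate the ubiquitin-like protein Isg15 and load peptides onto class I molecules, and in tumors they are known as signs of an inflamed tissue.

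RNA-seq was analyzed from 25 libraries. Spalax were caught in the field, and their age was estimated at about 2 years or at 10 years or more. Treated Spalax received 1 mg of 3MCA in 500 µl under the skin of the neck. The 4 control Spalax were untreated females. The 4 Spalax called tolerant had been injected, had grown no tumor after 18 or 30 months, and comprised 3 males and 1 female, sampled on the injected side. The tumor-bearing Spalax were 2 females with a granuloma, a benign fibrotic growth, taken at 14 and 16 months (animals 600 and 976), and 1 female and 1 male with a fibrosarcoma, a malignant tumor, taken at 18 and 30 months (animals 2240 and 2230). Each of them gave 1 library of the tumor on the injected side (IS) and 1 of neck muscle on the uninjected side (UIS). All mice were male C57BL/6 of 3 to 4 months. The 3 control mice (M1, M2 and M5) were untreated, and 3 mice (1019, 1023 and 512) injected with 200 µg in 200 µl gave a fibrosarcoma IS and a UIS library each, after 14, 12 and 11 weeks. All control and tolerant libraries carried a dual index and all libraries of tumor-bearing animals a single one, so index type and tumor bearing cannot be told apart in the comparisons of UIS with control.

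Between 17025447 and 31179183 reads were counted per library, and a normalized read count of 10 stood for 6.95 to 19.3 reads. The tissue labels were checked with marker genes. The summed normalized read count of the skeletal muscle markers lay between 731438 and 2837570 in the Spalax libraries from muscle and between 363 and 5996 in the 4 tumor libraries. In mouse it lay between 1022040 and 4017100 in muscle and at 167, 18865 and 62963 in the tumors of 1019, 1023 and 512. The labels give muscle as the tissue of every library, and all 7 tumor libraries held far less muscle RNA than the others. The summed macrophage and monocyte markers (8 genes in Spalax) reached 14418 to 61123 in the Spalax tumors against 1608 to 26570 in muscle, and those of mouse (10 genes) reached 9376 to 43290 against 489 to 6610. In bulk tissue, a change in the number of cells of a type and a change of RNA per cell cannot be told apart, and the part of cell composition in the results was not tested. Scaling by total reads in place of the authors' size factors moved the median log2 difference of all genes between IS and UIS from -0.01 to 0.74 in granuloma, from 0.03 to 0.86 in Spalax fibrosarcoma and from 0.11 to 1.21 in mouse, and differences are therefore reported relative to the size factors.

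To ask how the interferon genes differed between tumor and the other side of the same animals, IS was compared with UIS. In Spalax fibrosarcoma 23 of 36 genes tested rose and none fell, and the median log2 difference over the 36 genes was 1.99 against 0.03 for all genes. In mouse 31 of 45 genes rose and none fell, with a median of 1.97 against 0.11 for all genes. In granuloma 4 of 35 genes passed the test, all higher on the IS. Among all genes tested, 17.4% were called higher in Spalax fibrosarcoma, 22.8% in mouse and 11.7% in granuloma. The members called made up 63.9%, 68.9% and 11.4% of those tested, so the share in granuloma was at the level of all genes, although its median log2 difference was 1.83 against -0.01. A gene was called where its p in limma, on log2(normalized read count + 1) and after Benjamini-Hochberg adjustment over all genes, was 0.05 or less. In granuloma and Spalax fibrosarcoma, where each side had 2 libraries, the count of calls depended on single libraries. Without any 1 of the 4 granuloma libraries no gene of the whole table passed, and the same held for fibrosarcoma without UIS 2230 or without UIS 2240, whereas 26 members passed without IS 2230 or without IS 2240. In mouse 19 members passed without IS 1019 and 19 without IS 1023, and no gene of the table did after both libraries of animal 1023 were left out.

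**Figure D1:**
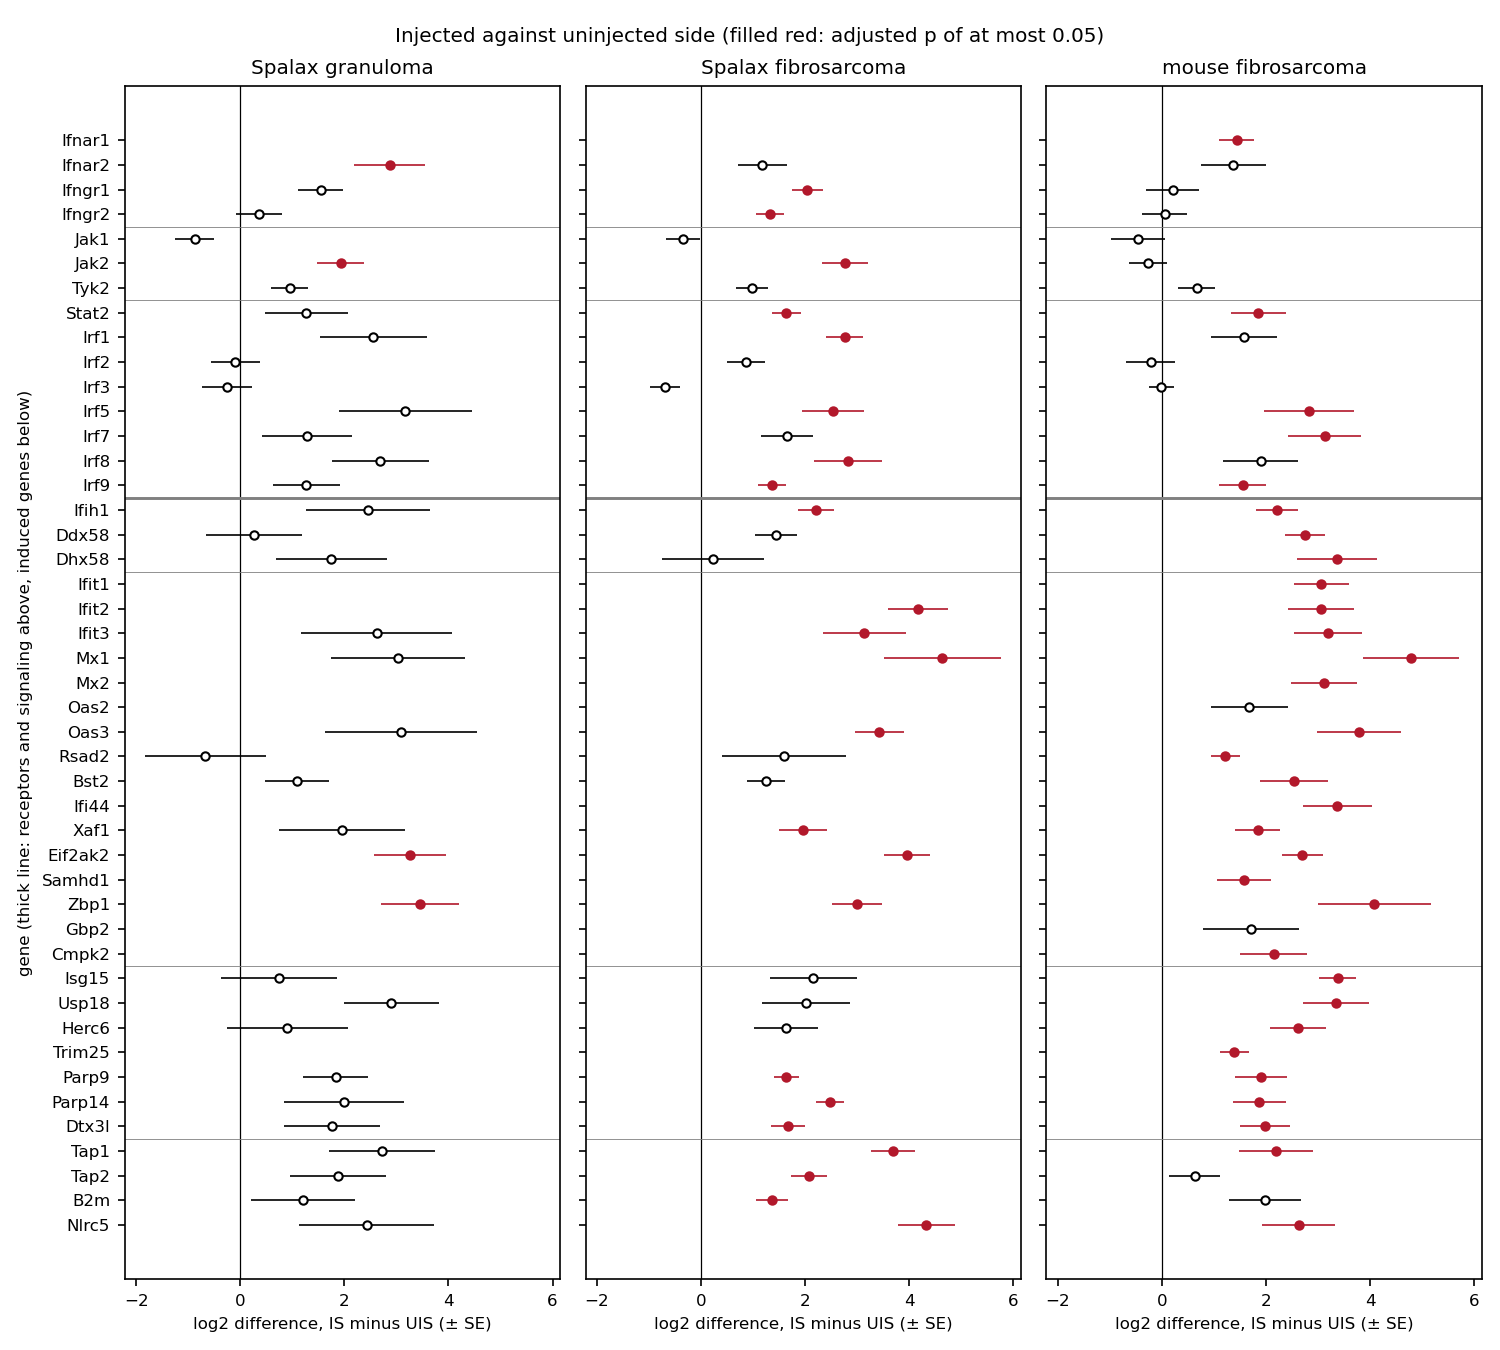
Log2 difference between injected side and uninjected side (± SE) of each interferon gene in Spalax granuloma (2 animals), Spalax fibrosarcoma (2 animals) and mouse fibrosarcoma (3 animals). Filled red points passed the test at an adjusted p of at most 0.05 (4, 23 and 31 genes), open points did not, and missing points are genes with no row or below the filter.

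Both chains of the interferon gamma receptor passed in Spalax fibrosarcoma and neither did in mouse. Ifngr1, the ligand-binding chain for interferon gamma, stood at 1971 and 1340.1 in the fibrosarcoma IS libraries 2230 and 2240 of Spalax and at 368 and 422 in their UIS. It was higher in both tumors, by 2.04 on the log2 scale (SE 0.29, adjusted p 0.0112). Its partner Ifngr2 rose from 264 and 261 to 727 and 593 (log2 difference 1.32, SE 0.27, adjusted p 0.0248). In mouse, Ifngr1 was at 2918, 1642 and 892 in the IS of 1019, 1023 and 512 and at 1105, 2289.5 and 1104 in their UIS. The sides overlapped, and the log2 difference was 0.20 (SE 0.51, adjusted p 0.764). Ifngr2 of mouse differed by 0.05 (SE 0.44, adjusted p 0.936). Whether the response of Ifngr1 differed between the species was tested directly and did not pass (difference of the differences 1.84, SE 0.71, adjusted p 0.18).

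Ifnar2, the chain of the type I receptor with high affinity for the ligand, was 1 of the 4 genes called in granuloma. It stood at 1006 and 2023 in the IS of 600 and 976 against 345 and 109.5 in their UIS, a log2 difference of 2.87 (SE 0.68, adjusted p 0.0374). In Spalax fibrosarcoma the difference of 1.18 did not pass (adjusted p 0.119), but did with the animal as a block (0.0433) and under scaling by total reads (0.027). In mouse the difference of 1.37 did not pass either (0.115), and again did with the block (0.0386) and under scaling by total reads (0.0245). Ifnar1, the signaling chain of that receptor, was measured in mouse and rose from 542, 647 and 501 to 2263, 1526 and 1006 (log2 difference 1.43, SE 0.33, adjusted p 0.0152). In the mouse annotation (GRCm38) 9.46% of the exon bases of Ifnar2 lie under another gene of the same strand.

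Among the kinases, Jak2, which serves the interferon gamma receptor, had the largest difference in Spalax. It was at 3242 and 1735 in the fibrosarcoma IS of 2230 and 2240 and at 270.1 and 447 in the UIS. This was a rise of 2.77 (SE 0.44, adjusted p 0.014). In granuloma it was at 1601 and 2399 in the IS against 374 and 708, a rise of 1.93 (SE 0.46, adjusted p 0.0368). Every tumor library of Spalax thus lay above every muscle library, of which tolerant 2251 was highest at 1067. In mouse the IS held 1846, 1409 and 746 and the UIS 1495, 1292 and 1766, with overlap between the sides and a log2 difference of -0.27 (SE 0.37, adjusted p 0.574), which became 0.80 under scaling by total reads. Tyk2, a kinase of the type I receptor, did not pass in any of the 3 comparisons, with log2 differences of 0.95 in granuloma, 0.97 in Spalax fibrosarcoma and 0.66 in mouse. Jak1, shared by both receptors, was not called in any of them either, and its differences of -0.88, -0.35 and -0.46 were -0.14, 0.46 and 0.61 under scaling by total reads.

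Of the 8 transcription factors, 5 rose in Spalax fibrosarcoma and 4 in mouse. Irf1, an early target of interferon gamma signaling, was at 1741 and 1049 in the Spalax fibrosarcomas of 2230 and 2240 and at 182 and 218 on the other side. It rose by 2.75 (SE 0.35, adjusted p 0.00856). The mouse IS held 3249, 1262 and 1131 against 908, 792 and 239 in the UIS, which did not overlap, yet the difference of 1.58 did not pass (adjusted p 0.0827, and 0.0275 with the animal as a block). Irf8, a factor of macrophages and dendritic cells, rose by 2.82 in Spalax fibrosarcoma (SE 0.65, adjusted p 0.0329). In mouse it differed by 1.90 without passing (adjusted p 0.0706, and 0.0133 with the block). Irf5, which acts downstream of Toll-like receptors, rose in both, by 2.53 (SE 0.59, adjusted p 0.0339) and 2.83 (SE 0.87, adjusted p 0.0376). Stat2 and Irf9, which form the factor activated by type I interferon, rose by 1.64 and 1.36 in Spalax fibrosarcoma and by 1.85 and 1.55 in mouse.

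Irf7, the factor that amplifies the production of type I interferon and is itself induced, was the most raised factor of mouse. Its IS libraries held 5903, 3012 and 1521 and its UIS libraries 756, 354 and 151, so that the lowest tumor lay above the highest muscle library. The log2 difference was 3.12 (SE 0.71, adjusted p 0.0139). In Spalax fibrosarcoma it went from 237 and 102 in the UIS to 455 and 523 in the IS without passing (1.64, SE 0.50, adjusted p 0.0628), and the difference between the species was -1.48 (SE 1.04, adjusted p 0.451). Irf2, a competitor of Irf1 at its sites, did not pass in any of the 3 comparisons. Irf3, the factor activated by RNA sensing without prior induction, was not called either, with 467 and 343 in the Spalax fibrosarcomas against 682 and 616 (log2 difference -0.69, SE 0.29, adjusted p 0.124, and 0.11 under scaling by total reads). Its mouse difference of -0.02 became 1.05 under scaling by total reads and was then called.

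The 3 sensors of foreign RNA rose in mouse throughout. Ddx58, which encodes RIG-I, was at 2664, 2111 and 1568 in the IS against 392, 402 and 181 in the UIS, a log2 difference of 2.75 (SE 0.39, adjusted p 0.00347). Ifih1, which encodes MDA5, rose by 2.21 (SE 0.40, adjusted p 0.00722), and Dhx58, their regulator LGP2, by 3.37 (SE 0.77, adjusted p 0.0146). In Spalax fibrosarcoma Ifih1 rose from 76.8 and 74 to 384 and 323 (2.21, SE 0.34, adjusted p 0.0133). Ddx58 missed the threshold without the animal block and passed with it (1.44, adjusted p 0.0507 and 0.0446). Dhx58 was not called in Spalax. Its tumor values of 84 and 27.7 overlapped the UIS values of 86.7 and 19.4, and its highest library of all was control 6038 at 379. The log2 difference was 0.22 (SE 0.98, adjusted p 0.877), and the contrast of both species of -3.14 did not pass (SE 1.35, adjusted p 0.221).

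The antiviral effectors held the largest difference of the set in Spalax fibrosarcoma and in mouse, which was that of Mx1 in both. Mx1, a dynamin-like GTPase that blocks several viruses, was at 1219 and 6876 in the Spalax fibrosarcoma IS of 2230 and 2240 and at 249 and 53.3 in the UIS, a rise of 4.64 (SE 1.13, adjusted p 0.0372). In mouse it went from 116, 30.9 and 11.5 to 2152, 1005 and 451, a rise of 4.78 (SE 0.93, adjusted p 0.00872). Ifit2, which binds viral RNA, was near the detection limit in Spalax muscle, with 0 to 18 in the control, tolerant and UIS libraries, and stood at 87.6 and 136 in the fibrosarcomas. It rose by 4.17 there (SE 0.58, adjusted p 0.0104) and by 3.05 in mouse (SE 0.64, adjusted p 0.0108). Ifit3, its neighbor and partner, rose by 3.13 and 3.18, and Oas3, which makes the second messenger of the RNase L pathway, by 3.42 and 3.78.

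Eif2ak2, the kinase PKR that arrests translation on double-stranded RNA, and Zbp1, a sensor of Z-form nucleic acids that triggers necroptosis, were the induced genes raised in all 3 comparisons. Eif2ak2 was at 390.4 and 262 in the Spalax fibrosarcomas against 19.9 and 19.4 in the UIS (3.96, SE 0.44, adjusted p 0.00676). In granuloma it was at 115 and 227 against 18.1 and 14.1 (3.26, SE 0.69, adjusted p 0.0292), and in mouse the rise was 2.69 (SE 0.40, adjusted p 0.00387). Zbp1 rose by 2.99, 3.46 and 4.08 in the same order, with adjusted p of 0.014, 0.0301 and 0.0231. Both genes thus separated tumor from muscle in each of the 4 tumor-bearing Spalax.

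Not every effector rose in Spalax. Rsad2, the enzyme viperin, was at 322 in the fibrosarcoma of 2240 but at 31.2 in that of 2230, within the 11.8 to 57.4 of control and UIS muscle, and did not pass (1.59, SE 1.19, adjusted p 0.344). In mouse it rose by 1.22 (SE 0.28, adjusted p 0.0142). Bst2, the tether of budding virus also known as tetherin, differed by 1.25 in Spalax fibrosarcoma without passing (adjusted p 0.0548, and 0.0325 with the animal block), while it rose by 2.54 in mouse (SE 0.65, adjusted p 0.0208). Xaf1, a pro-apoptotic protein, rose by 1.95 in Spalax fibrosarcoma (adjusted p 0.0346, and 0.059 with the block) and by 1.84 in mouse. Of the effectors with no Spalax row, Ifit1, Mx2, Ifi44, Samhd1 and Cmpk2 rose in mouse, by 3.06, 3.12, 3.37, 1.57 and 2.15. Ifit1 belongs to the RNA-binding family of Ifit2, and Samhd1 is an enzyme that lowers the nucleotide pool. Cmpk2 is a nucleotide kinase that neighbors Rsad2. Oas2, a relative of Oas3, did not pass (1.68, adjusted p 0.107, and 0.019 with the block). Gbp2, a guanylate-binding protein of the interferon gamma response, had 4381 in the IS of 1019 but 976 and 887 in the other tumors, which overlapped the UIS values of 775, 1003 and 141, and did not pass (1.70, SE 0.92, adjusted p 0.173).

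Around Isg15, all 7 genes rose in mouse. Isg15 itself went from 198, 153 and 87.8 in the UIS to 1727, 1251 and 1397 in the IS, and its adjusted p was the smallest of the set (log2 difference 3.37, SE 0.36, adjusted p 0.00185). Usp18, the protease that removes Isg15 and damps the type I receptor, rose by 3.35, the Isg15 ligase Herc6 by 2.62 and Trim25, a ubiquitin ligase that acts on RIG-I, by 1.39. In Spalax fibrosarcoma the first 3 of these did not pass. Isg15 was at 414 and 673 against 257 and 53.3 (2.16, SE 0.84, adjusted p 0.109), Usp18 at 146 and 566 against 109 and 44.9 (2.02, SE 0.85, adjusted p 0.129), and Herc6 differed by 1.63 (adjusted p 0.101). UIS 2230 was high for both Isg15 and Usp18. The Parp9 group, in which Parp9 and Dtx3l form a complex of ADP-ribosylation and ubiquitination and Parp14 is a related enzyme, rose in Spalax fibrosarcoma as in mouse. Parp14 went from 270.1 and 293 to 1344 and 1831 (2.47, SE 0.27, adjusted p 0.00669), Parp9 rose by 1.64 and Dtx3l by 1.67. The mouse values were 1.87, 1.90 and 1.97.

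The 4 genes of antigen presentation rose together in Spalax fibrosarcoma. Nlrc5, the transactivator of class I genes, was at 840.2 and 1836 in the IS of 2230 and 2240 against 45.5 and 81.2 in the UIS (4.33, SE 0.54, adjusted p 0.00836). Tap1 and Tap2, both chains of the peptide transporter, rose by 3.69 (SE 0.42, adjusted p 0.00697) and 2.07 (SE 0.35, adjusted p 0.016). B2m, the light chain of class I molecules, rose from 11847 and 10205 to 25907 and 30777 (1.36, SE 0.30, adjusted p 0.03, and 0.0803 with the animal block). In mouse Nlrc5 rose by 2.62 and Tap1 by 2.19, whereas Tap2 overlapped between the sides (0.63, SE 0.49, adjusted p 0.325) and B2m did not pass (1.98, adjusted p 0.0553, and 0.0169 with the block). In the mouse annotation 18.5% of the exon bases of Tap2 lie under genes of the other strand.

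**Figure D2:**
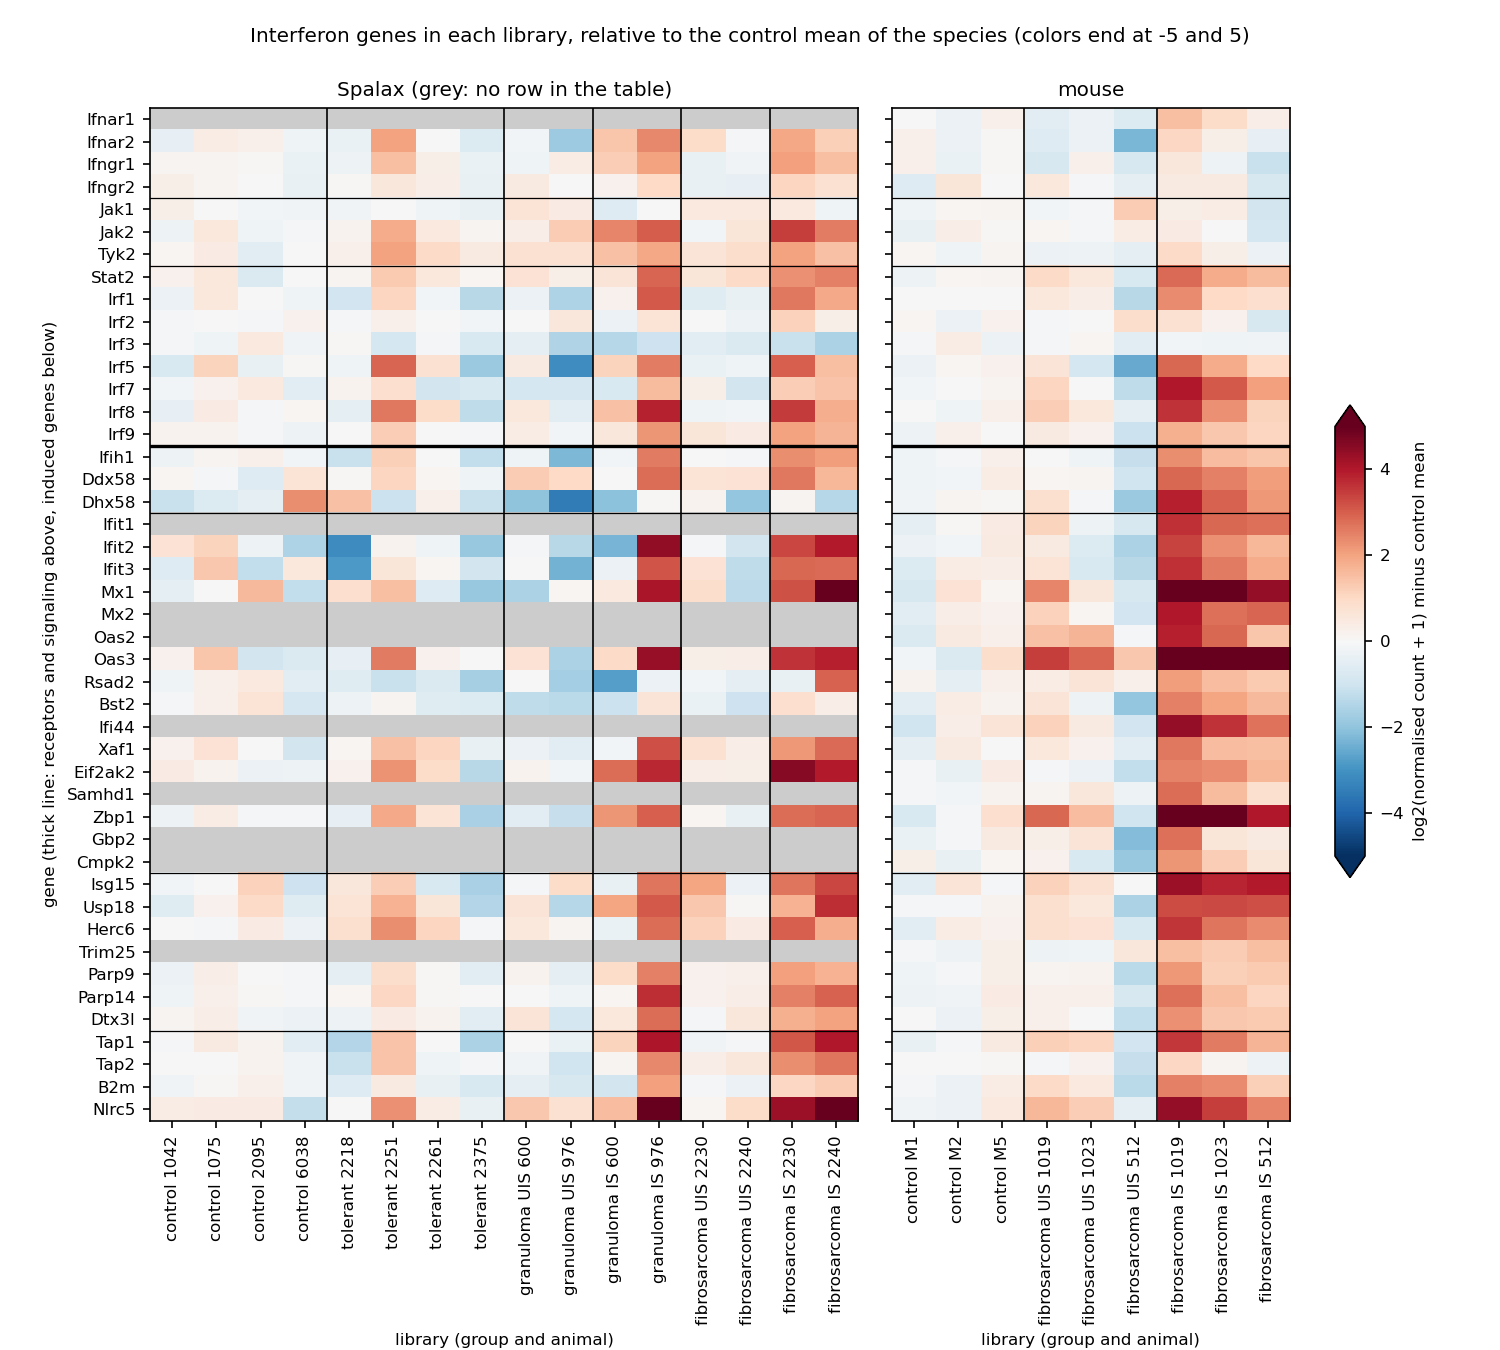
Log2(normalized read count + 1) of each interferon gene in each library, as the difference from the control mean of the same species. Rows are genes by role, columns are the 16 Spalax and 9 mouse libraries, and the injected sides of 976, 2230, 2240 and of all 3 mice are red over most induced genes, while granuloma IS 600 is close to control.

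Genes of the same pathway outside the set were counted as well. Of a list of other interferon-induced genes, 14 of 22 tested rose in Spalax fibrosarcoma, 17 of 40 in mouse and 3 of 21 in granuloma, and none fell. These were 63.6%, 42.5% and 14.3% of those tested, against 17.4%, 22.8% and 11.7% of all genes, so the share in granuloma was near that of all genes. The largest rise was that of the chemokine Cxcl10, with 6.36 in Spalax fibrosarcoma and 4.77 in mouse. Next in Spalax fibrosarcoma were Ddx60, with 5.98, and the immunoproteasome subunit Psmb9, with 3.90. Of the upstream sensors of nucleic acids, 3 of 6 tested rose in Spalax fibrosarcoma and 7 of 9 in mouse. Mb21d1, which encodes the DNA sensor cGAS, rose by 4.35 in Spalax fibrosarcoma, 3.56 in granuloma and 3.87 in mouse. The adaptor Mavs fell by 2.63 in granuloma and by 1.84 in mouse. Among the negative regulators 1 of 5 tested rose in granuloma, 1 of 5 in Spalax fibrosarcoma and 1 of 6 in mouse, shares not far from those of all genes. That gene was Socs1 (5.05, 3.41 and 3.59 in the same order).

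The interferons that had a row were scarcely read. Ifng, the gene of interferon gamma, had 35 reads in granuloma IS 976, 2 in granuloma IS 600, 10 in fibrosarcoma IS 2240 and 2 in fibrosarcoma IS 2230, and 0 to 3 in the Spalax control, tolerant and UIS libraries. In mouse it had 95, 11 and 8 reads in the tumors of 1019, 1023 and 512 and 0 to 4 in the control and UIS libraries. The granuloma with more Ifng reads was higher in all 36 genes of the set, and the mouse tumor with most reads was above that with fewest in all 45. Fibrosarcoma 2240 was above 2230 in 16 of 36. The median log2 ratios of the set were 2.26, 1.31 and -0.27 in these pairs, against -0.02, -0.04 and -0.003 for all genes. Each pair is 1 library against 1 and also differed in markers of immune cells and muscle. Whether Ifng had a part in the levels of the set was not tested. Ifnb1, the main type I interferon of most tissues, had at most 1 read in any Spalax library and 4, 2 and 3 in the mouse tumors. The 14 rows of alpha interferons in the mouse table held 11 reads in all libraries together. The Spalax table had 0 rows named as alpha interferons and no row for Ifnl2 or Ifnl3, so these were not measured in Spalax. A count of 0 allows up to 3 reads, and none of the ligands with a row passed the filter on low values in Spalax.

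The 2 granulomas stood far apart from each other in these genes. Mx1 was at 2285 in granuloma IS 976 and at 189 in granuloma IS 600, Nlrc5 at 1923 and 123, Parp14 at 3057 and 253, and B2m at 52581 and 6658. Ifit2 had a value of 190.3 in 976 and 0.726, a single read, in 600. All 36 genes were higher in 976, and 21 of them at least 4-fold on the scale of value + 1, against 5.57% of all genes. Those 21 comprised 17 of the 22 induced genes and 4 of the 14 receptor and signaling genes. Jak2, Ifnar2, Eif2ak2 and Zbp1, the genes called in granuloma, were among those that differed less, with ratios of at most 2.01. This follows in part from the test, which with 2 libraries on each side more readily calls genes whose libraries are alike. With 1 library of each granuloma these ratios carry no test.

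Set against the UIS of its own animal, the tumor of 976 was higher in all 22 induced genes, with a median log2 difference of 3.83, and that of 600 in 13 of 22, with a median of 0.13. In the fibrosarcoma of 2230 the medians were 1.43 for the receptor and signaling genes and 1.98 for the induced genes, and in that of 2240 they were 1.45 and 2.96. Within the fibrosarcomas 2 of 36 genes, Mx1 and Rsad2, were 4-fold or more higher in 2240 than in 2230, and 0 were 4-fold lower. Of all genes 7.1% were 4-fold or more higher in 2240, so the share of the set was not above that of all genes. The animal block, which takes up such differences between animals, added Ifngr1 (adjusted p 0.0495) and Mx1 (adjusted p 0.0334) to the calls in granuloma and kept the other 4.

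Markers of some immune cells were higher in 976 and those of neutrophils were not. The summed T and NK cell markers were at 921 in granuloma IS 976 and at 78.4 in granuloma IS 600, with 0 and 1 of the 8 genes at 0 reads. They reached 458 and 251 in the fibrosarcomas of 2230 and 2240 and 1.34 to 170.4 in Spalax muscle. The summed macrophage and monocyte markers were at 45534 in granuloma IS 976 and at 16024 in granuloma IS 600, the neutrophil markers at 5662 and 7378, and the fibroblast markers at 528446 and 1098420. The part of these cells in the difference between the granulomas was not tested.

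**Figure D3:**
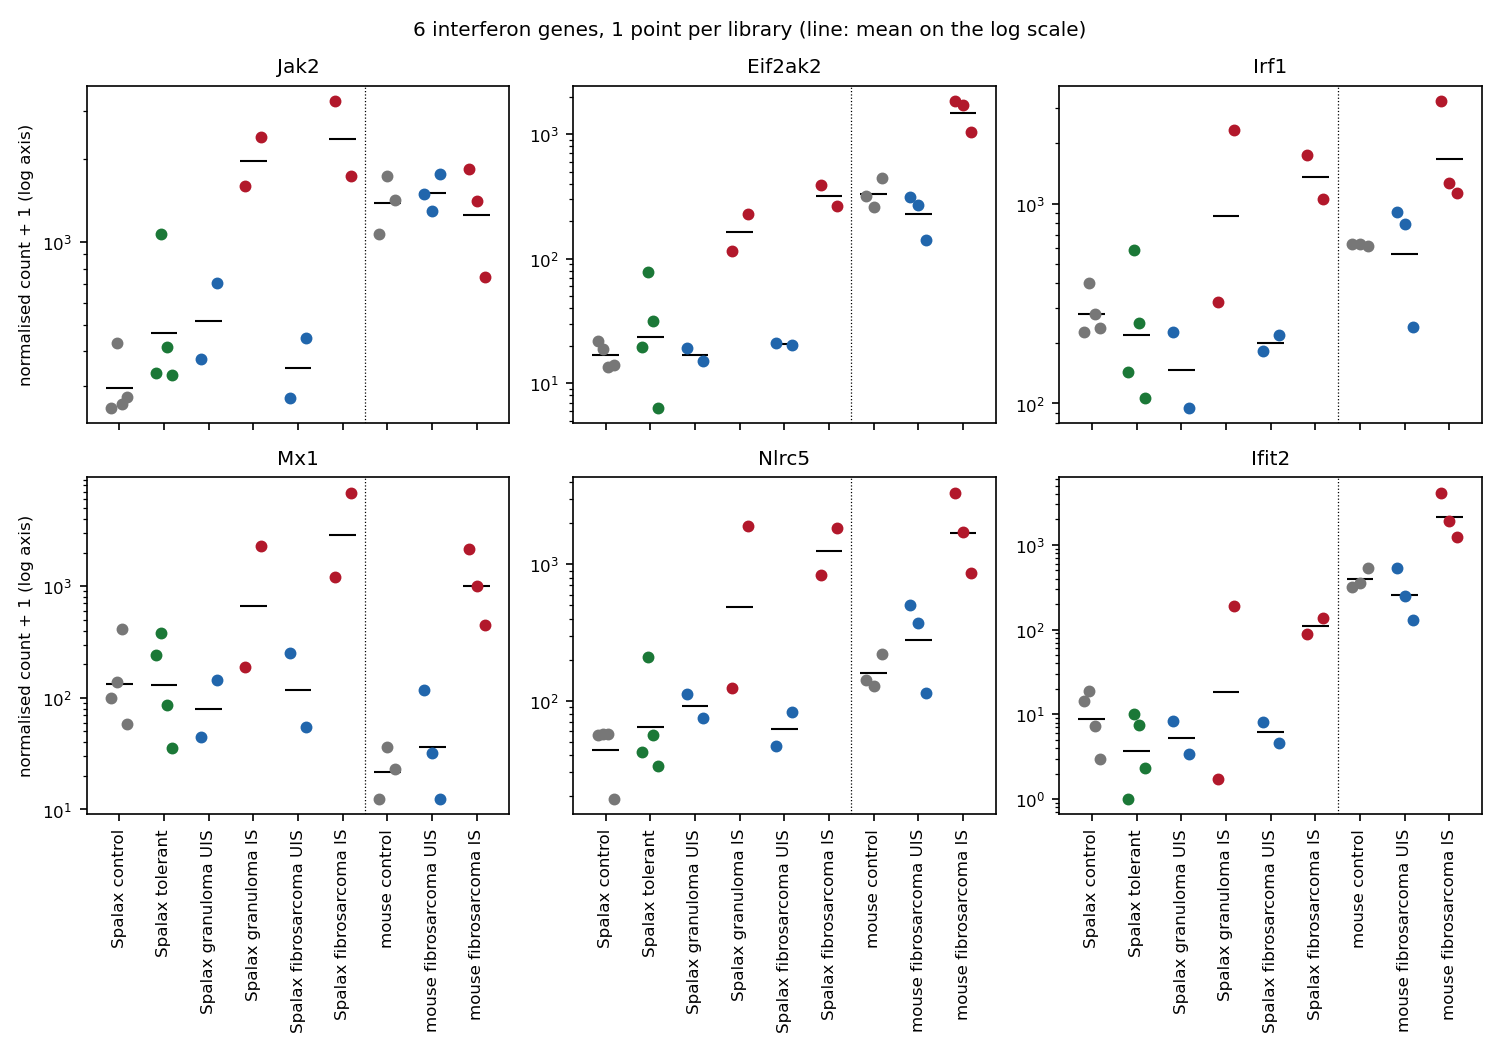
Normalized read count + 1 of 6 interferon genes in every library on a log axis, by group, with the mean on the log scale as a line. Jak2 and Eif2ak2 are high in both granuloma IS libraries, whereas Irf1, Mx1, Nlrc5 and Ifit2 are high in 1 of them (976), and the 3 mouse tumors overlap mouse muscle for Jak2 alone among the 6.

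When the fibrosarcoma IS was compared with the granuloma IS, no gene of the set passed in limma, where 0% of all genes were called. Unadjusted p was under 0.05 for 0 of the 36 genes and for 591 of all 14562 genes tested. Of the set, edgeR and DESeq2 called 0, and of all genes they called 0 and 153. The log2 difference was above 0 in 33 of 36 genes with a median of 0.64. This direction rested on 1 library, since the median was 1.71 without granuloma IS 976 and -0.34 without granuloma IS 600, where 7 genes of 36 lay above 0. The tumor types overlapped for every gene of the set but Eif2ak2 (390.4 and 262 against 115 and 227), which did not pass (0.98, SE 0.52). With so few libraries of each type, separation of a gene can arise by chance. The share of all genes without overlap was not counted.

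Muscle of animals that had been injected was then compared with untreated muscle. Between the 4 UIS libraries of tumor-bearing Spalax and the 4 controls none of 34 genes tested was called by limma, and 0% of all genes were. Unadjusted p was under 0.05 for 5 of the 34 genes and for 2315 of all 13909 genes tested. The share of the set was thus not above that of all genes. Of the set, edgeR and DESeq2 called 0, and of all genes they called 0 and 516. The median log2 difference was -0.08 against -0.03 for all genes. The largest among the 5 was that of Bst2, at 576, 561, 1133 and 693 in UIS and 1326, 1662, 2275 and 788 in control (-0.99, SE 0.34, adjusted p 0.234). Ddx58 pointed the other way, with 702, 582, 469 and 484 in UIS and 307, 269, 185 and 462 in control, which did not overlap (0.93, SE 0.29, adjusted p 0.216).

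No gene passed between tolerant and control Spalax either. Limma called none of 34 genes and 0% of all genes, and unadjusted p was under 0.05 for Tyk2 and Rsad2. Among all 14020 genes tested 733 had such a p, a share near that of the set. Of the set, edgeR and DESeq2 also called 0, and of all genes they called 0 and 60. Rsad2 was at 12.1 to 26.4 in tolerant and 27.9 to 57.4 in control, without overlap (-1.02, SE 0.41, adjusted p 0.923). Inside the tolerant group, however, library 2251 stood above the other 3. It held 1534 for Ifnar2, against 236 to 394 in the others, 1067 for Jak2, against 326 to 413, 759.7 for Irf5, against 26.8 to 171, and 209 for Nlrc5, against 32.2 to 54.7. Its median log2 difference from the control mean was 1.26 over the 14 receptor and signaling genes and 1.22 over the 22 induced genes. The other 3 tolerant libraries lay between -0.38 and 0.17 and between -0.84 and 0.08. Without 2251, 8 of 34 genes lay above 0 in the comparison with control, with a median of -0.26 in place of 0.08. In 2251 the summed macrophage and monocyte markers were also highest of the tolerant group, at 26570 against 1608 to 7451, the fibroblast markers were at 119512 against 6534 to 34901, and the muscle markers at 766363 against 1608190 to 2565570. The part of these cells in its values was not tested.

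**Figure D4:**
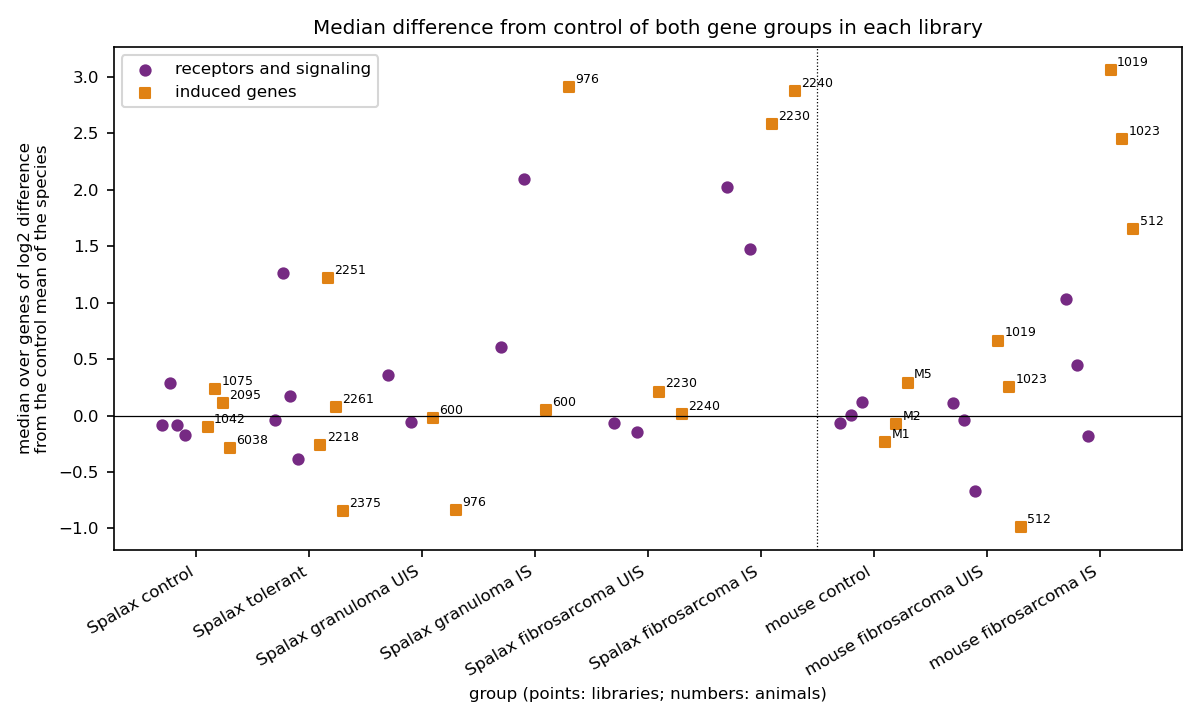
Median over the receptor and signaling genes (circles) and over the induced genes (squares) of the log2 difference from the control mean of the species, in each library, with animal numbers. Granuloma IS 976 (2.10 and 2.91) stands with the fibrosarcomas and granuloma IS 600 (0.61 and 0.05) near muscle, and tolerant 2251 (1.26 and 1.22) stands above the other tolerant libraries.

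In mouse, none of the 45 genes passed between UIS and control by limma or edgeR, which called 0% of all genes. Unadjusted p in limma was under 0.05 for 1621 of all 14792 genes tested and for 1 gene of the set. That gene was Oas3, at 90.7, 61.9 and 20.2 in the UIS of 1019, 1023 and 512 and at 6.52, 4.02 and 14.2 in control, without overlap (2.58, SE 0.70, adjusted p 0.401). DESeq2 called it (adjusted p 0.0137), among 342 of all genes. Of the mice, 1019 and 512 were compared with each other on each side. Animal 1019 was above 512 in all 45 genes in the tumor and in 41 of 45 in the UIS. The median log2 ratio over the 45 genes was 1.31 in the tumor and 1.55 in the UIS, against -0.04 and 0.11 for all genes. In the UIS 17 genes were 4-fold or more higher in 1019, against 12.4% of all genes. In the tumor 7 were, against 8.2% of all genes. With 1 library of each animal and side these ratios carry no test. Zbp1 was at 2844, 1061 and 496 in the tumors of 1019, 1023 and 512 and at 226, 87.7 and 14.4 in their UIS. How many genes put 1023 between the other mice was not counted. The T and NK cell markers fell in the order 1019, 1023 and 512, with 3719, 1320 and 211 (10 genes) in the tumors. In the UIS they were at 358, 74.3 and 23. The macrophage and monocyte markers had the same order, with 43290, 26236 and 9376 in the tumors and 6610, 2989 and 489 in the UIS. The neutrophil, B cell, dendritic cell, endothelial and fibroblast markers did not keep it on both sides. The tumor of 512 had the highest muscle markers. The part of any of these cells in the differences between the mice was not tested.

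The fibrosarcoma response was compared between the species by an interaction term over the 36 genes with a row in both tables. Of these, 16 were called in both species, which is 69.6% of the 23 called in Spalax and 66.7% of the 24 called in mouse. Of all 36 genes 63.9% were called in Spalax fibrosarcoma, so the share among the mouse calls was near that of the whole set. No overlap beyond the sizes of the lists is therefore shown. The share of all genes called in both species was not counted. Called in Spalax alone were Ifngr1, Ifngr2, Jak2, Irf1, Irf8, Tap2 and B2m, and called in mouse alone were Irf7, Ddx58, Dhx58, Rsad2, Bst2, Isg15, Usp18 and Herc6. These lists hold for the fit without the animal block. With the block, Irf1, Irf8 and B2m passed in mouse, Ddx58 and Bst2 passed in Spalax fibrosarcoma, and Ifnar2 passed in both. B2m and Xaf1 then no longer passed in Spalax fibrosarcoma. In the interaction only Jak2 was called by limma, with a difference of 3.04 (SE 0.61, adjusted p 0.0349). That is 2.78% of the 36 genes, against 3.95% of all 11085 genes tested, so the share was not above that of all genes. Species, dose and time after injection cannot be told apart in this contrast. With the animals as a block the adjusted p of Jak2 was 0.103, and over the other settings it ranged from 0.000418 (DESeq2) to 0.171 (without Spalax UIS 2230). The call was also lost under scaling by total reads (0.0502) and without Spalax IS 2230 (0.0744), Spalax UIS 2240 (0.117), mouse IS 1023 (0.0769), mouse UIS 1019 (0.0515) or mouse UIS 1023 (0.0783), while the difference stayed between 2.59 and 3.49. For the other 35 genes the interaction did not pass. An unadjusted p under 0.05 was found for 3 of the 36 genes, including Jak2, and for 2390 of all 11085 genes. The median over the 36 genes was -0.10 against -0.02 for all genes. In mouse 5 of 15 receptor and signaling genes and 26 of 30 induced genes rose, and in Spalax fibrosarcoma 8 of 14 and 15 of 22 did. Whether these shares differ was not tested.

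**Figure D5:**
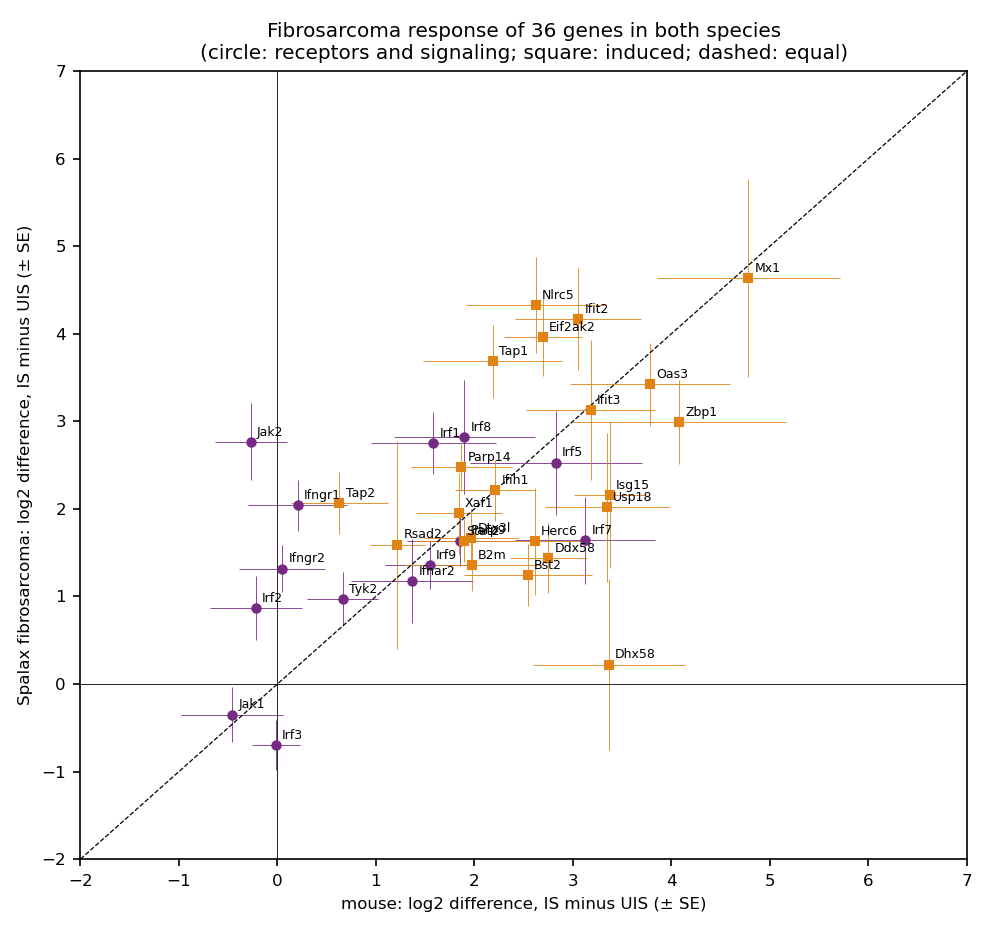
Log2 difference between injected and uninjected side (± SE) of 36 interferon genes in Spalax fibrosarcoma (vertical, 2 animals) against mouse fibrosarcoma (horizontal, 3 animals), with the line of equal differences. Jak2 lies far above the line (2.77 against -0.27) and Dhx58 far below it (0.22 against 3.37).

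Several members lie side by side in the mouse genome (GRCm38, GENCODE annotation). The receptor genes Ifnar2, Ifnar1 and Ifngr2 share a stretch at chr16:91372783-91565623, and Parp14, Dtx3l and Parp9 one at chr16:35832874-35972605. Ifit2, Ifit3 and Ifit1 lie at chr19:34550694-34650009, Oas2 and Oas3 at chr5:120730333-120777661, Mx1 and Mx2 at chr16:97447035-97560900, Rsad2 and Cmpk2 at chr12:26442746-26479837, and Tap1 and Tap2 at chr17:34187553-34216321. Neighbors did not always move alike. In the mouse tumors Ifnar1 rose and Ifngr2 did not pass, and Tap1 rose and Tap2 did not pass, whereas all members of the Ifit, Mx and Parp9 clusters rose. Mx2 is annotated as a polymorphic pseudogene.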

How the data were processed

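RNA-seq of 16 Spalax and 9 mouse libraries was analyzed, each from 1 animal and side. The authors trimmed single-end stranded reads with Trimmomatic 0.33, mapped them with TopHat (1.4.1 in the processing notes of the labels, TopHat2 in the methods) against the published Spalax genome or the mouse genome (GRCm38 in the notes) and used htseq-count for counting. The strand setting is not given in the sources used here. The deposited value of a gene is a normalized signal, obtained by the authors from its read count through a single size factor for each library, and every species has a table of its own. In each library 100% of the values were whole multiples of what 1 read is worth, within 0.1 reads, so whole reads were recovered. All pairs of replicates differed by more than sampling noise. In the table of Spalax, 2387 gene names had a comma in place of the letter t, which shifts columns, and values were therefore read from the end of the line. The tables were normalized separately, so levels are compared within a species.

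The members and gene lists were chosen with earlier results of these data known. All members could be named. Pathway genes outside the set were counted, and named where they were ligands or among the 3 largest called rises or falls of their list in a comparison, and markers are given as sums. Limma 3.58.1 in R 4.3.3 (lmFit, eBayes with trend) was fitted to log2(value + 1) in the libraries compared, for genes that reached 10 in at least the number of libraries of the smaller group, and p was adjusted over all of these genes. Differences on this scale understate those of low genes. Alternatives were a pseudocount of 0.1, no filter, scaling by total reads, edgeR 4.0.16, DESeq2 1.42.0, all libraries of a species in 1 fit, the animal as a block, and leaving out single libraries. Leaving out both libraries of a mouse was added after seeing the data. Fits were tested on simulated data.

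IS and UIS libraries of tumor-bearing animals come in pairs from the same animal by their labels. Over all genes tested, the deviations of such pairs from their group means correlated at 0.117 on average in mouse (3 pairs). The value was 0.00925 in granuloma and -0.00186 in Spalax fibrosarcoma (2 pairs each). With 2 animals the deviations of a group mirror each other, so both pairs give the same value. These values cannot show how much the pairing matters for the interferon genes. Limits at 0 reads cover counting error only, since reads carry no molecular identifiers. Python 3.11.15 with matplotlib 3.10.9 drew the plots.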

Additional observations from a re-analysis of the deposited data

Results flagged for a closer look

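In groups of 4 Spalax libraries the highest or lowest value of a gene stood apart from the other 3 in 10 of 72 gene and group pairs. The rule was Dixon's test on untransformed values. It flags about 1 in 20 groups of normally distributed values, a shape that read counts need not have. The rate over all genes of these libraries was not counted, so no excess over it is shown for the 10 pairs. Of these, 7 were the tolerant library 2251, which was highest for Ifnar2 (1534, next 394), Jak2 (1067, next 413), Irf9 (494, next 217), Ddx58 (611, next 308), Oas3 (38.3, next 6.57), Parp14 (478, next 249) and Nlrc5 (209, next 54.7). The pairs share libraries and are not independent of each other. Among the controls, Jak2 was high in 1075 (429, next 272), Dhx58 was high in 6038 (379, next 53.6) and Nlrc5 was low in 6038 (17.9, next 55.2).

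The response of Jak2 differed between Spalax fibrosarcoma and mouse by 3.04 on the log2 scale in the interaction test of limma (adjusted p 0.0349), and not in the fit with the animal as a block (adjusted p 0.103).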

How the results depend on the processing

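The 4 calls in granuloma became 1 without a filter, 8 under scaling by total reads, 17 by DESeq2 and 12 with all Spalax libraries in the fit, and leaving out 1 library gave 0 to 0. The 23 calls in Spalax fibrosarcoma became 0 to 26 when 1 library was left out. The 31 calls in mouse became 19 to 34 when 1 library was left out, and 20, 0 and 34 without both libraries of 1019, 1023 and 512. Between mouse UIS and control DESeq2 called 1 gene in place of 0. The species difference of Jak2 was the only call of its kind, and there were 0 under scaling by total reads, 0 with the animal block and 0 to 1 when 1 library was left out. With 1 library left out of a pair, the lone library is assumed to vary like the other group.

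Of the 59 calls of single genes, DESeq2 kept 59, edgeR 56, the pseudocount of 0.1 58, no filter 51, all libraries 51 of the 58 it could be fitted to, and the animal block 56. The block gave 6, 24 and 36 calls in granuloma, Spalax fibrosarcoma and mouse. Scaling by total reads turned Irf3 in mouse from -0.02 to 1.05, while it moved the median of all genes from 0.11 to 1.21. Depth limits the ligands, most of which had 0 to 4 reads.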
